A study of Mus musculus with 18 samples.

Results

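The data compared here are RNA sequencing libraries of dorsal root ganglia, which house the cell bodies of sensory neurons next to the cord, from wild-type (WT) mice. Ganglia of mice 7 d after spared nerve injury (SNI; libraries wt_409_7d, wt_410_7d and wt_416_7d, n = 3) were set against ganglia of naive mice (wt_28, wt_44, wt_48 and wt_67, n = 4), so the comparison used 7 of the 18 libraries of the series. Libraries were assigned from the genotype and the time after injury in their labels, and all genes were examined. The other 11 libraries also took part in the fit. They were libraries of mice lacking importin alpha3 (KO) in the naive state, at 7 d and at 2.5 months after SNI, and 1 WT library at 2.5 months. The KO libraries at 7 d and in the naive state are also set beside the WT values where the injury response of both genotypes is described. In SNI, a rodent model of lasting pain after nerve damage, some sciatic branches are severed and one is spared. No operated group without nerve injury and no preparation or sequencing batch is labelled. Neither the age of the mice nor the ganglia and side collected are given in the labels. Effects of injury, of surgery, of age and of batch therefore cannot be told apart. The labels do not say whether a library holds 1 animal, so p-values reflect library-to-library spread, which may be technical.

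Cutting a peripheral axon is known to send signals back to the cell body, where stress-activated kinases and transcription factors of the AP-1 and ATF families switch on a regeneration program: growth-cone and cytoskeletal proteins, secreted peptides and growth factors. At the same time injured sensory neurons are known to reduce many of the channels, receptors and transcription factors that define their mature type, and macrophages gather around them. Only part of the neurons in a lumbar ganglion send an axon into the cut branches, and a library of the whole ganglion averages injured and spared neurons with satellite glia, Schwann cells, vessels and blood.

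Total counts were 18634506 to 20074580 in the naive libraries and 13068703 to 14157742 at 7 d, with no overlap. Levels below are CPM, read counts divided by each library's scaled size, in the order wt_28, wt_44, wt_48, wt_67 for naive and wt_409_7d, wt_410_7d, wt_416_7d for 7 d, and changes are log2 fold changes of 7 d against naive from edgeR's quasi-likelihood test with Benjamini-Hochberg adjustment. The neuronal markers Snap25 and Avil were abundant and were not called: Snap25, a synaptic vesicle fusion protein, had 1376 to 1604 CPM in naive and 998 to 1406 CPM at 7 d, and Avil, an actin regulator of sensory neurons, 860.4 to 971 and 801 to 1033 CPM. Kpna4, the gene of importin alpha3, stood at 108, 119.6, 136 and 122 CPM in naive WT and 116, 125 and 119 CPM at 7 d, while no KO library exceeded 5.63 CPM. Mitochondrially encoded genes took 3.49 to 4.39% of counts in naive libraries and 7.47%, 3.43% and 7.66% at 7 d, so wt_410_7d differed from the other 7 d libraries in this share. Of 19010 genes tested, 604 (3.18%) were called at an adjusted p under 0.05, 476 higher (2.5%) and 128 lower (0.673%), and 514 of the 604 belong to none of the 49 gene lists described below. The median change of all genes was -0.0047. Ranges of naive and 7 d libraries were apart for 468 of the 476 genes called higher and 124 of the 128 called lower. Lack of overlap therefore adds little to a call.

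**Figure D1:**
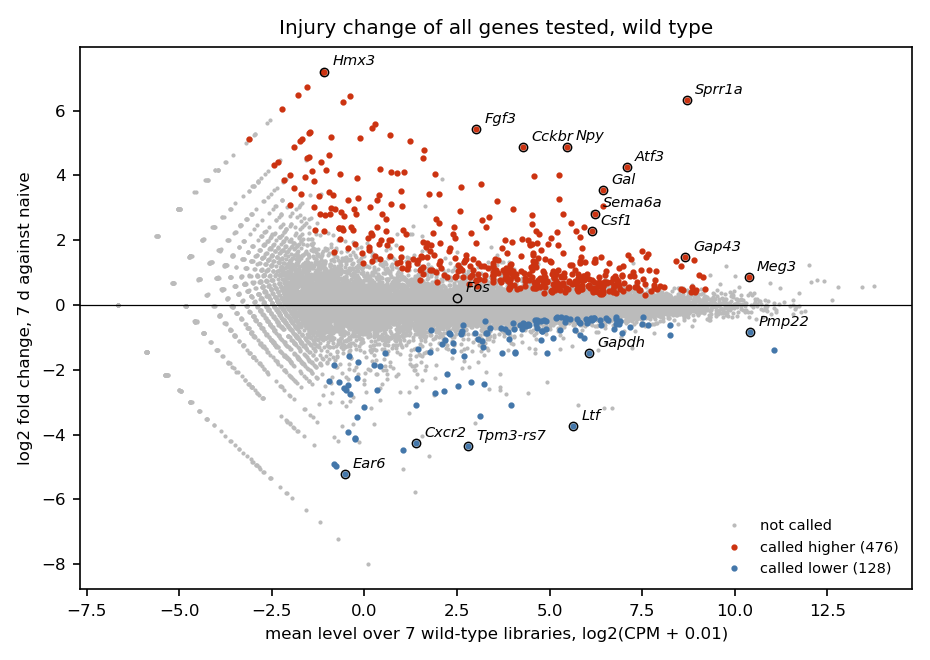
Log2 fold change at 7 d against naive in WT (vertical axis) by mean level over the 7 libraries, log2(CPM + 0.01), for each of the 19010 genes tested. Called genes are coloured, 476 higher and 128 lower, and circled genes are named in the text; Hmx3 at the lower end and Sprr1a at the upper end of the levels are both among the largest rises.

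The 4 genes that mark injured sensory neurons in the ganglion were all called higher, with no overlap between naive and injured libraries. Atf3 (chromosome 1, 191170296 to 191218039, minus strand, GRCm38), a transcription factor induced by cell stress, had 11.5, 19.8, 22.8 and 7.76 CPM in naive and 214, 233 and 444 CPM at 7 d. Every injured library was above every naive one, wt_416_7d was the highest, and the naive libraries themselves split, with wt_44 and wt_48 above wt_28 and wt_67. Atf3 rose by 4.26 ± 0.62 (SE, adjusted p = 0.00135), from 15.5 ± 7.02 to 297 ± 128 CPM (SD, n = 4 and 3). Sprr1a (chromosome 3, 92483952 to 92485895, minus strand), a small proline-rich protein first known from skin and linked to axon outgrowth, had 2.39, 19.5, 22.8 and 3.24 CPM in naive and 647, 669 and 1554 CPM at 7 d. The same naive pair, wt_44 and wt_48, was above the other naive libraries, and wt_416_7d was again the highest. Sprr1a rose by 6.32 ± 1.32 (SE, adjusted p = 0.0194). Leaving out any of wt_28, wt_67 or wt_416_7d ended the call of Sprr1a (adjusted p up to 0.0735). Csf1 (chromosome 3, 107741048 to 107760469, minus strand), a growth factor of macrophages and microglia, went from 23.9, 29.3, 28.5 and 25.1 CPM to 94.2, 101 and 196 CPM, a rise of 2.29 ± 0.24 (SE, adjusted p = 5.83e-05). Sema6a, a transmembrane semaphorin that guides axons, went from 16.3, 23.2, 25.8 and 17.2 CPM to 110.1, 110.1 and 218 CPM, a rise of 2.82 ± 0.25 (SE, adjusted p = 1.30e-05). For both genes the naive libraries lay close together and wt_416_7d stood well above the other injured libraries, which were nearly level.

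The 250 bases before the start of Sprr1a and of Atf3 are shown because these are the genes by which injured neurons are recognised, and because AP-1 and ATF factors were among the genes that rose. Sequences are from RefSeq on GRCm38.p6, read toward the gene on the minus strand (chr3:92485882-92486131 for Sprr1a, chr1:191183334-191183583 for Atf3). Capitals mark matches to the AP-1 motif TGANTCA in Sprr1a, 146 and 116 bases before the start, and to the C/EBP-ATF motif TGATGCAA, here on the other strand as TTGCATCA, 110 bases before the start of Atf3. These are RefSeq starts, which differ from the GENCODE gene limits given above: the Atf3 window lies wholly inside those limits, so it is not the region before the outermost annotated start, and the Sprr1a window overlaps its limits at the edge.
Sprr1a: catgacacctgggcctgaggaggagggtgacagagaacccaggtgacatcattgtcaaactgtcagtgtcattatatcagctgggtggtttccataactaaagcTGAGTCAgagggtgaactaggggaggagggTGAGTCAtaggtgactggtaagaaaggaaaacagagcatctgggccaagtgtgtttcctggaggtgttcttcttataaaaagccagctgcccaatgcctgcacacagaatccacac
Atf3: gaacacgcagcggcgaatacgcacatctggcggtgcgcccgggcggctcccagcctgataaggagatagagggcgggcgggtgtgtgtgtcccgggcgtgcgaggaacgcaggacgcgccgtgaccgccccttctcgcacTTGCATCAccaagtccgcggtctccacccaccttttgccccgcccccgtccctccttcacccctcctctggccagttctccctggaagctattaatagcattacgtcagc
Both strands were searched in the promoters of the 10546 tested genes with 1 RefSeq start. TGANTCA was found in 4.64% of them, in 28 of the 276 such genes called higher (10.1%) and in 4 of the 74 called lower (5.41%). TGATGCAA was found in 0.550% of all, in 6 of the 276 genes called higher and in 1 of the 74 called lower. For the cyclic AMP response element TGACGTCA the shares were 2.55% of all, 2.90% of higher and 0 of 74 lower genes. The STAT motif TTCNNNGAA was found in 5.97%, 8.33% and 6.76%, and TATAAA, a basal promoter element, in 7.40%, 8.70% and 9.46%. These counts describe letters in a window, and no factor was measured at these sites.

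**Figure D2:**
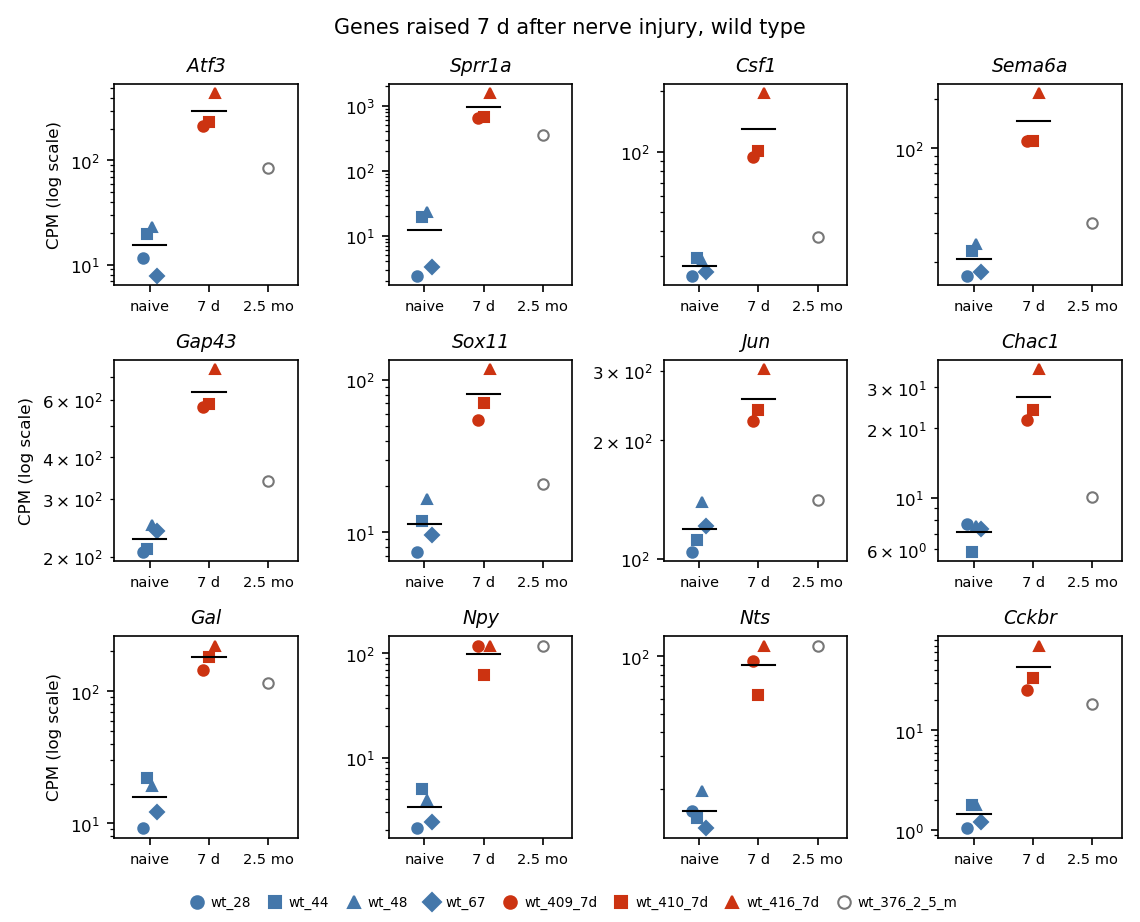
CPM on a log axis in each WT library for 12 genes named in the text, with naive libraries in blue, 7 d libraries in red, the lone 2.5-month WT library as an open circle and group means as lines. All 7 d libraries lie above all naive libraries for each of the 12 genes, and wt_416_7d is the highest for Atf3, Sprr1a, Csf1 and Sema6a.

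Of 17 transcription factors tied to axon injury, 9 rose and 0 fell, against 2.5% and 0.673% of all genes, and the median change of the list was 0.56. These shares of all genes are the reference for every list count below that edgeR gave with all libraries in the fit. For counts at an unadjusted p under 0.05 the reference is 3196 of the 19010 genes tested. For DESeq2 counts it is 743 higher and 368 lower of the 19010. For edgeR counts without wt_416_7d it is 0.977% higher and 0.185% lower. The lists were chosen with earlier results of these data known, so such counts are not a test of the lists. Sox11, a developmental regulator needed for axon growth, had 7.43, 11.9, 16.6 and 9.67 CPM in naive and 54.2, 70.7 and 117 CPM at 7 d. Jun, the core AP-1 subunit, had 104, 112, 139.8 and 121 and 223, 238 and 303 CPM. Groups did not overlap for either gene; Sox11 rose by 2.82 ± 0.36 (SE, adjusted p = 0.000253) and Jun by 1.1 ± 0.15 (adjusted p = 0.000360). Smad1, which relays BMP signals, rose by 0.91 ± 0.13 (adjusted p = 0.000674), Nfil3, a basic leucine zipper repressor, by 1.77 ± 0.22 (adjusted p = 0.000198) and Klf6, a zinc finger factor linked to regeneration, by 0.92 ± 0.17 (adjusted p = 0.00368). Creb1, Xbp1 and Cebpd made up the rest with Atf3, at 0.47 ± 0.12, 0.50 ± 0.13 and 1.28 ± 0.33 (adjusted p = 0.0305, 0.0387 and 0.0387). Members called higher without wt_416_7d numbered 6 of the 17. Among 18 immediate-early genes, the fast responders to neuronal activity and stress, 3 rose: Fosl2 and Fosl1, partners of Jun in AP-1, by 1.32 ± 0.29 (adjusted p = 0.0162) and 1.15 ± 0.29 (adjusted p = 0.0332), and Dusp1, a phosphatase that ends MAP kinase signals, by 0.72 ± 0.18 (adjusted p = 0.0384). Fos, the partner after which the family is named, had 5.39, 4.37, 6.77 and 4.62 CPM in naive and 4.85, 5.05 and 8.39 CPM at 7 d. The groups overlapped for Fos, whose change was 0.20 ± 0.34 (adjusted p = 0.823). No call was left for Fosl2 without any of wt_28, wt_67 or wt_416_7d (adjusted p up to 0.114), Fosl1 without any of wt_28, wt_67, wt_409_7d or wt_416_7d (adjusted p up to 0.186) and Dusp1 without any of wt_28, wt_44, wt_48, wt_67 or wt_416_7d (adjusted p up to 0.251).

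Of 29 axon growth effectors, structural and adhesion proteins of a regrowing axon, 13 rose and 0 fell, against 2.5% and 0.673% of all genes. The median change was 0.62. Gap43, a phosphoprotein of growth cones, had 206, 210.2, 249.6 and 239.7 CPM in naive and 570.1, 584 and 741 CPM at 7 d, a rise of 1.48 ± 0.21 (SE, adjusted p = 0.000575). Stmn4, a stathmin that loosens microtubules, had 13.6, 14.7, 13.3 and 14.5 and 53.7, 61.0 and 87.3 CPM and rose by 2.26 ± 0.27 (adjusted p = 0.000190). Both genes had a narrow naive range, and wt_416_7d was the highest injured library for both. Tubb6, a beta tubulin, rose by 2.28 ± 0.26, Flrt3, a membrane protein of neurite growth, by 2.41 ± 0.28, and Itga7, a laminin receptor subunit, by 1.36 ± 0.16. Ecel1, an endopeptidase known for its induction in damaged neurons, rose from a mean of 5.06 to 81.7 CPM (4.01 ± 0.73), Gadd45a by 2.11 ± 0.26, the adhesion molecule Chl1 by 1.66 ± 0.22, and Tnfrsf12a, the receptor of the cytokine TWEAK, by 1.30 ± 0.19. The others were Crmp1, Tuba1c, Sprr1a and Cdc42se1. In 23 of the 29 genes all injured libraries were above all naive ones, where 10.3% of all genes were. DESeq2 called 20 of the 29. Members called by edgeR numbered 22 without the KO libraries ko_39, ko_40 and ko_422_7d in the fit. Among 39 axon guidance genes 3 rose and 0 fell. Sema6a rose, with Plxna4, a receptor subunit for semaphorins, at 1.08 ± 0.18 (adjusted p = 0.00256) and Sema4f at 0.54 ± 0.12 (adjusted p = 0.0186). The list median was -0.08, and 13 of the 39 had an unadjusted p under 0.05, against 3196 of the 19010 genes tested. Sema4f no longer passed without any of wt_28, wt_67 or wt_416_7d (adjusted p up to 0.109).

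Peptides and their receptors held several of the largest rises. Npy, the gene of neuropeptide Y, had 2.09, 4.96, 3.90 and 2.39 CPM in naive and 119, 62.7 and 117 CPM at 7 d. Gal, the gene of galanin, had 9.17, 22.1, 19.3 and 12.2 and 146, 180.4 and 222 CPM. Nts, the gene of neurotensin, had 15.5, 14.1, 19.7 and 12.5 and 94.6, 62.7 and 113 CPM. For each of these 3 peptides the lowest injured library was well above the highest naive one, and wt_410_7d was the lowest injured library for Npy and Nts but not for Gal. The rises were 4.89 ± 0.91 (SE, adjusted p = 0.00896), 3.54 ± 0.54 (adjusted p = 0.00174) and 2.55 ± 0.41 (adjusted p = 0.00222). The stress peptides Crh and Ucn rose by 4.06 ± 0.71 and 4.07 ± 0.67 from means of 0.474 and 0.232 CPM, Adcyap1, which encodes PACAP, by 0.93 ± 0.16 and Vgf, a secreted growth factor-induced protein, by 1.39 ± 0.27, from 284 to 742 CPM. In all 7 of 22 neuropeptide genes rose and 0 fell, against 2.5% and 0.673% of all genes, with a median of 0.94. The list was split, with 13 changes above 0 and 9 below. Its median in single libraries, relative to the naive mean, was 0.41 in wt_409_7d, 0.77 in wt_410_7d and 0.05 in wt_416_7d. The summed level of the 22 genes overlapped, at 2389 to 3188 CPM in naive and 2919 to 3815 CPM at 7 d. The classical peptides of nociceptors behaved otherwise: Calca, the gene of CGRP, had 979, 938, 1219 and 1032 CPM in naive and 1314, 1149 and 722 CPM at 7 d, and Tac1, the gene of substance P, 212, 243, 246 and 225 and 245, 313 and 120.4 CPM. For both, wt_416_7d was the lowest of all 7 libraries and the other injured libraries were within or above the naive range, with changes of 0.03 ± 0.17 (adjusted p = 0.961) and -0.03 ± 0.25 (adjusted p = 0.968).

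Of 25 peptide receptor genes, 3 rose and 1 fell. Cckbr, the cholecystokinin B receptor, had 1.05, 1.80, 1.79 and 1.22 CPM in naive and 25.2, 33.6 and 70.4 CPM at 7 d, a rise of 4.87 ± 0.56 (SE, adjusted p = 0.000144), and its lowest injured library was far above every naive one. Gpr151, an orphan receptor akin to galanin receptors, rose by 3.99 ± 0.59 (adjusted p = 0.00130), from 3.25 ± 1.32 to 51.8 ± 19.7 CPM. Cckar, the A receptor, was already at 42.1 ± 1.34 CPM in naive and rose by 0.84 ± 0.21 (adjusted p = 0.0382). Ednra, the endothelin A receptor, fell by 0.88 ± 0.20 (adjusted p = 0.0196). Prokr2, a prokineticin receptor named after its values were seen, rose by 1.17 ± 0.21 (adjusted p = 0.00388). Losing 1 library ended the call for Cckar without any of wt_28, wt_44, wt_48, wt_67 or wt_416_7d (adjusted p up to 0.244) and Ednra without any of wt_44, wt_67 or wt_416_7d (adjusted p up to 0.125).

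Ion channels and transmitter receptors, which set the excitability of sensory neurons, showed few calls. Cacna2d1, the calcium channel subunit bound by gabapentin, had 188, 272, 280.2 and 222 CPM in naive and 406, 577 and 684 CPM at 7 d. No injured library overlapped the naive range, and the rise was 1.21 ± 0.21 (SE, adjusted p = 0.00270); it was the only one of 19 calcium channel genes called. Kcnk16, a two-pore potassium channel, rose by 3.66 ± 0.57 (adjusted p = 0.00149), from 0.999 ± 0.647 to 12.8 ± 3.79 CPM. Of 39 voltage-gated potassium channel genes, Kcnq3, which carries M current, and Kcnc4 rose by 0.70 ± 0.16 (adjusted p = 0.0196) and 0.81 ± 0.19 (adjusted p = 0.0216), while 30 of the 39 had a change below 0 and the median was -0.24. Kcnj3, a subunit of channels opened by G proteins, fell by 0.60 ± 0.16 (adjusted p = 0.0455), so 1 of 28 other potassium channel genes rose and 2 fell, with Kcnj8, described with the vessel genes, the other. DESeq2 called 6 of these 28 genes lower, and 2 of the 39 voltage-gated ones. The 34 GABA and glutamate receptor genes had a median of -0.06. None of the 14 sodium channel, 31 sensory transduction and pacemaker channel, 8 opioid and cannabinoid receptor and 27 monoamine, acetylcholine and prostaglandin receptor genes was called by edgeR. Their medians were -0.14, -0.11, -0.23 and -0.17. In the same order an unadjusted p under 0.05 was found for 3, 4, 1 and 8 genes, and DESeq2 called 0, 1, 0 and 1 of them lower. Calls ended for Kcnq3 without any of wt_28, wt_44, wt_67 or wt_416_7d (adjusted p up to 0.109), Kcnc4 without any of wt_28, wt_44, wt_410_7d or wt_416_7d (adjusted p up to 0.112) and Kcnj3 without any of wt_28, wt_44, wt_48, wt_67, wt_409_7d or wt_416_7d (adjusted p up to 0.250).

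Scn10a, the sodium channel Nav1.8 of nociceptors, had 1010.2, 1186, 1272 and 1145 CPM in naive and 962, 1263 and 778 CPM at 7 d, and Scn11a, which encodes Nav1.9, 705, 773, 668 and 770.2 and 426.4, 765 and 412 CPM. Mrgprd, a receptor of non-peptidergic nociceptors, had 134, 186, 153 and 149.6 and 85.1, 156 and 77.1 CPM, and Trpv1, the capsaicin receptor, 111, 150.3, 149 and 135 and 124, 256 and 102 CPM. In all 4 genes wt_409_7d and wt_416_7d were below wt_410_7d, which lay within or above the naive range, and none was called (adjusted p = 0.724, 0.276, 0.383 and 0.677). The list of 29 nociceptor identity genes followed this pattern: 28 of them had a change below 0, the median was -0.38, and its median in single libraries, relative to the naive mean, was -0.54 in wt_409_7d, 0.00 in wt_410_7d and -0.89 in wt_416_7d. Agtr1a, an angiotensin receptor, was the member called by edgeR, at -1.03 ± 0.27 (adjusted p = 0.0440), and DESeq2 called 4 lower and 1 higher. The call of Agtr1a was lost without any of wt_28, wt_44, wt_67, wt_409_7d or wt_416_7d (adjusted p up to 0.241). Large neuron genes gave another order, with 0.07, -0.61 and -0.37, and Ina, a neurofilament partner, was the member that rose, by 0.45 ± 0.10 (adjusted p = 0.0216); DESeq2 also called 2 of these 19 genes lower. Ina no longer passed without any of wt_28, wt_44, wt_67, wt_410_7d or wt_416_7d (adjusted p up to 0.157). Among 22 neurotrophic factor and receptor genes, Gfra1, a co-receptor of GDNF, rose by 1.05 ± 0.20 (adjusted p = 0.00517), from 159.9 ± 14.7 to 330.5 ± 81.6 CPM. Without wt_416_7d the call of Gfra1 ended (adjusted p up to 0.0596). Of 21 pan-neuronal genes 2 rose (9.5%, against 2.5% of all genes), Stx1a at 0.48 ± 0.12 (adjusted p = 0.0294) and Elavl3 at 0.54 ± 0.13 (adjusted p = 0.0326). Calls ended for Stx1a without any of wt_28, wt_44, wt_48, wt_67, wt_410_7d or wt_416_7d (adjusted p up to 0.132) and Elavl3 without any of wt_28, wt_44, wt_67, wt_409_7d, wt_410_7d or wt_416_7d (adjusted p up to 0.114).

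Genes of the integrated stress response, which ATF4 drives when protein synthesis is restrained, rose in 8 of 24 cases and fell in 0. Of all genes 2.5% rose and 0.673% fell, and the list median was 0.50. Chac1, an enzyme that degrades glutathione, had 7.73, 5.83, 7.54 and 7.33 CPM in naive and 21.7, 24.0 and 35.8 CPM at 7 d. The naive libraries lay within a narrow range and the injured ones all above it, and Chac1 rose by 1.93 ± 0.19 (SE, adjusted p = 4.26e-05). Its 250 bases before the start (plus strand, chr2:119350992-119351241, RefSeq, GRCm38.p6) are shown because the motif of C/EBP-ATF dimers occurs there too, in capitals, 193 bases before the start.
Chac1: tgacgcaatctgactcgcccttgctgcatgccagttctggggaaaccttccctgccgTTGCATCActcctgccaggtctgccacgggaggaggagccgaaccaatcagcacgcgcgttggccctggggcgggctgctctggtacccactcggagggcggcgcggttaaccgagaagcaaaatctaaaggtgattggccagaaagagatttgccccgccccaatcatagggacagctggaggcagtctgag
Atf4 itself rose by 0.76 ± 0.14 (adjusted p = 0.00591) and Atf5 by 0.91 ± 0.14 (adjusted p = 0.00134). Mthfd2 and Shmt2, mitochondrial enzymes of one-carbon metabolism, rose by 0.85 ± 0.14 and 0.45 ± 0.10, Sesn2 by 1.09 ± 0.19, the pseudokinase Trib3 by 0.89 ± 0.19 and the amino acid carrier Slc7a5 by 0.57 ± 0.14. Without wt_416_7d, 5 of the 24 were called. Protein folding genes, at 1 of 20 (5%, against 2.5% of all genes), gave Dnajb1, a chaperone, at 0.53 ± 0.13 (adjusted p = 0.0305). The call of Dnajb1 was lost without any of wt_28, wt_44, wt_67, wt_409_7d or wt_416_7d (adjusted p up to 0.103). Of 16 cell death and p53 genes, 4 rose, among them Cdkn1a, the cell cycle inhibitor p21, by 1.53 ± 0.21, Gadd45g by 1.54 ± 0.27 and Hrk, a BH3-only activator of apoptosis, by 2.30 ± 0.41. Cdkn1a had 86.4, 84.0, 76.5 and 59.7 CPM in naive and 178, 182 and 306 CPM at 7 d, with every injured library above the naive range. Hrk no longer passed without wt_416_7d (adjusted p up to 0.0516).

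Immune genes moved in both directions. C1qb, C1qc and C1qa, the chains of complement C1q that macrophages make, had naive values of 7.97 to 13.2, 5.74 to 11.2 and 6.77 to 12.5 CPM and 7 d values of 27.6 to 56.2, 25.4 to 50.8 and 22.5 to 57.1 CPM. The groups did not overlap for any of them, wt_416_7d was the highest, and the rises were 1.89 ± 0.43 (adjusted p = 0.0214), 2.04 ± 0.49 (adjusted p = 0.0294) and 2.0 ± 0.51 (adjusted p = 0.0415). With the lipid receptor Trem2 and galectin-3 (Lgals3), at 1.52 ± 0.35 (adjusted p = 0.0219) and 0.99 ± 0.25 (adjusted p = 0.0337), they made 5 of 31 macrophage genes higher and 0 lower, against 2.5% and 0.673% of all genes. The list median was 0.99. The C1q chains were also the 3 called of 19 complement genes, whose median was 0.03. Losing 1 library ended the call for C1qa without any of wt_28, wt_44, wt_48, wt_67, wt_409_7d or wt_416_7d (adjusted p up to 0.236), C1qb without any of wt_48, wt_67 or wt_416_7d (adjusted p up to 0.140) and C1qc without any of wt_28, wt_48, wt_67 or wt_416_7d (adjusted p up to 0.184). The test was no longer passed by Trem2 without any of wt_28, wt_48, wt_67 or wt_416_7d (adjusted p up to 0.168) and Lgals3 without any of wt_28, wt_48, wt_67, wt_410_7d or wt_416_7d (adjusted p up to 0.201). Without wt_416_7d, 0 of the 31 passed in edgeR, and DESeq2 called 8 with all libraries. Fcrls, an Fc receptor-like gene of microglia and macrophages named after its values were seen, had 3.04, 3.94, 2.0 and 2.13 CPM in naive and 14.3, 10.03 and 27.3 CPM at 7 d and rose by 2.62 ± 0.39 (adjusted p = 0.000902). The summed level of the 31 genes was 190.1 to 480.0 CPM in naive and 314 to 654 CPM at 7 d, so the groups overlapped. Among 26 cytokine and chemokine genes, Csf1 and Ccl8, a monocyte-attracting chemokine, rose, the latter by 4.20 ± 0.99 (adjusted p = 0.0257) from a mean of 0.151 CPM. Leaving out any of wt_28, wt_44, wt_67 or wt_416_7d ended the call of Ccl8 (adjusted p up to 0.0907). No antigen presentation, lymphocyte, mast cell or interferon-stimulated gene was called by edgeR, with medians of -0.17, -0.50, -0.39 and -0.30. At an unadjusted p under 0.05 there were 1, 3, 1 and 8 of these genes, and DESeq2 called 3 interferon-stimulated genes lower and none of the others.

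**Figure D3:**
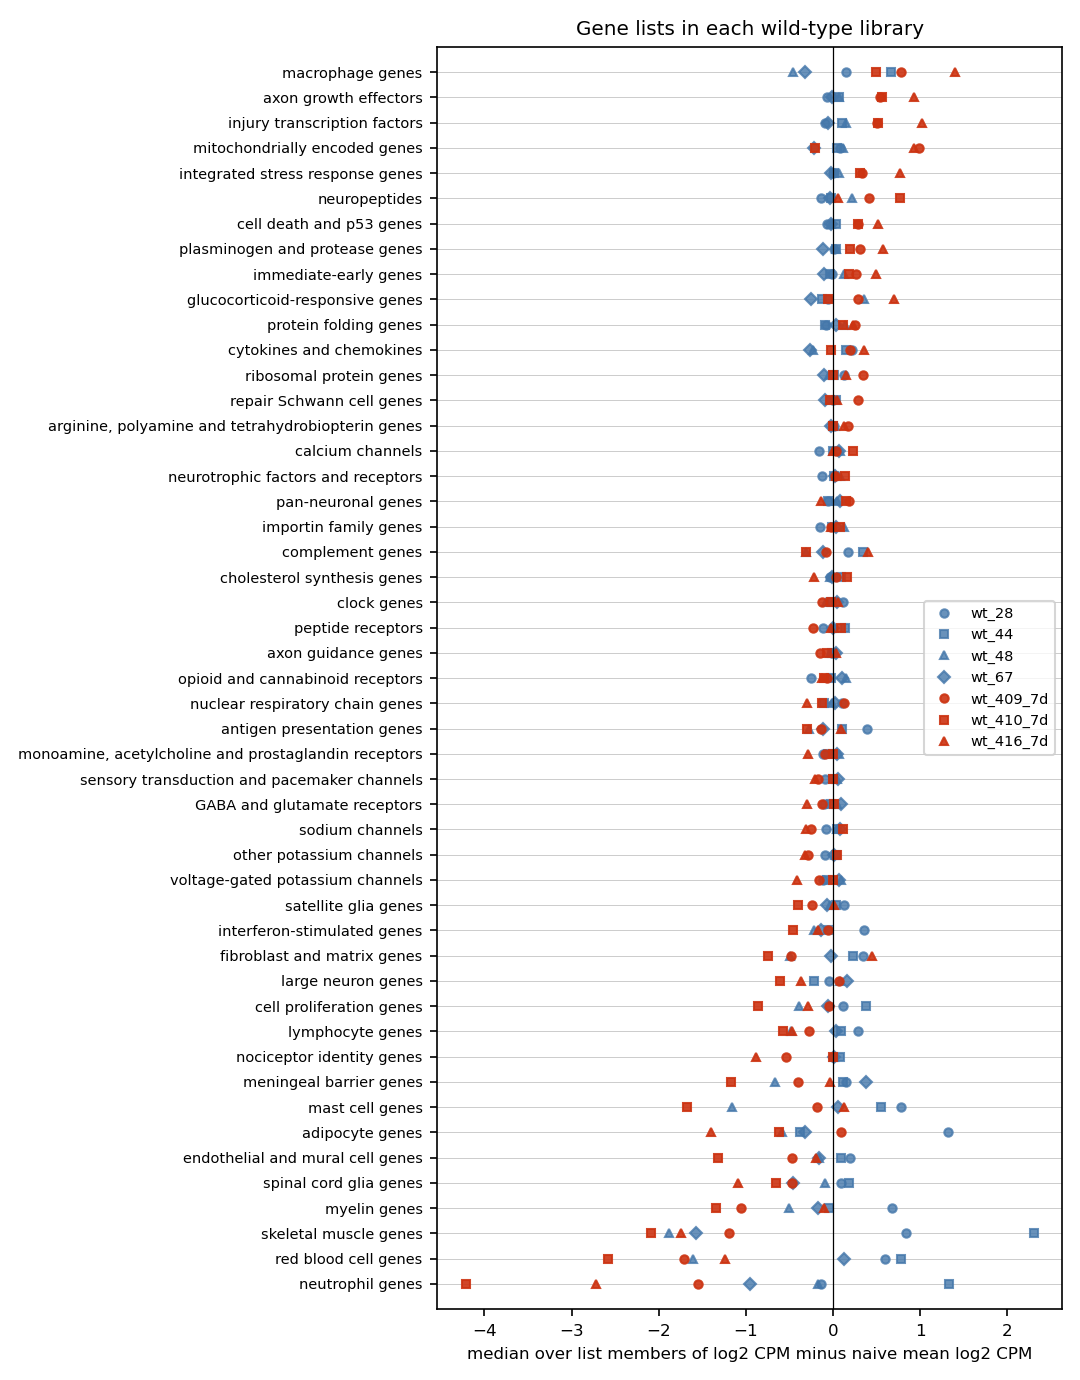
Median over the members of each gene list of log2 CPM relative to the naive mean, for the 4 naive (blue) and 3 injured (red) WT libraries. The axon growth, injury factor and stress lists are higher in all 3 injured libraries, while neutrophil, red blood cell and myelin lists spread widely within both groups, with wt_410_7d at -4.21 for neutrophil genes and wt_44 at 2.30 for skeletal muscle genes.

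Of 14 neutrophil genes, 4 fell and 0 rose by edgeR, with a median of -2.66, and DESeq2 called 11 lower. Ltf, the granule protein lactoferrin, had 54.1, 178, 63.0 and 36.2 CPM in naive and 11.6, 1.42 and 5.70 CPM at 7 d. Cxcr2, a chemokine receptor of neutrophils, had 2.94, 9.48, 3.33 and 1.97 and 0.221, 0 and 0.462 CPM. The naive library wt_44 was the highest and wt_410_7d the lowest for both genes, and the groups did not overlap. Ltf fell by 3.73 ± 0.82 (SE, adjusted p = 0.0216), Cxcr2 by 4.27 ± 0.92 (adjusted p = 0.0144), Mmp9, a gelatinase, by 3.08 ± 0.73 (adjusted p = 0.0292) and Mpo, myeloperoxidase, by 2.36 ± 0.50 (adjusted p = 0.0121). No call was left for Ltf without wt_410_7d or wt_416_7d (adjusted p up to 0.124), Cxcr2 without wt_409_7d or wt_410_7d (adjusted p up to 0.0521) and Mmp9 without any of wt_44, wt_410_7d or wt_416_7d (adjusted p up to 0.142). Calls ended for Mpo without wt_416_7d (adjusted p up to 0.0942). Without wt_416_7d, 1 of the 14 was called. In 11 of the 14 all injured libraries were below all naive ones, where 8.59% of all genes were. S100a8 and S100a9, the most abundant members, had 66.0, 184, 66.6 and 34.8 and 107, 304, 103 and 62.3 CPM in naive and 19.4, 1.49 and 9.93 and 32.1, 2.20 and 13.5 CPM at 7 d, and were not called by edgeR (adjusted p = 0.101 and 0.108) but were called lower by DESeq2. The summed level of the 14 genes was 280.2 to 1349.6 CPM in naive and 18.3 to 154 CPM at 7 d. Red blood cell genes, which enter with blood left in the tissue, had 0 of 9 called by edgeR (5 at an unadjusted p under 0.05, 4 lower by DESeq2) and a median of -2.0; their summed level was 72.0 to 388 CPM in naive and 36.7 to 166 CPM at 7 d, and the part of blood content in the neutrophil values was not tested. Fewer cells of a type and less RNA per cell cannot be told apart in these bulk libraries.

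Myelin genes were lower in 2 of 20 cases by edgeR and in 7 by DESeq2, with a median of -0.84. Pmp22, a protein of compact myelin, had 2567, 1542, 1129.7 and 1498 CPM in naive and 869, 899 and 1085 CPM at 7 d. The groups did not overlap, wt_48 was the lowest naive library and close to wt_416_7d, and wt_28 was far above the other naive libraries. Pmp22 fell by 0.82 ± 0.21 (SE, adjusted p = 0.0392). Pmp22 no longer passed without any of wt_28, wt_44, wt_67, wt_409_7d, wt_410_7d or wt_416_7d (adjusted p up to 0.115). Of 21 endothelial and mural cell genes, Plvap, a protein of fenestrated vessels, and Kcnj8, a potassium channel of pericytes, fell by 1.31 ± 0.27 (adjusted p = 0.0111) and 2.55 ± 0.52 (adjusted p = 0.00937), and all 21 had a change below 0. Kcnj8 was scarce, with means of 1.04 CPM in naive and 0.173 CPM at 7 d, and no counting interval is given for it. DESeq2 called 6 of the 21 lower, and edgeR 4 with the gene length trend removed. Their summed level was 389.8 to 522 CPM in naive and 276 to 348 CPM at 7 d, with no overlap. The vessel genes Cd34, Cav1 and Selp, named after their values were seen, fell by 0.77 ± 0.15, 0.94 ± 0.19 and 2.47 ± 0.59. Losing 1 library ended the call for Cd34 without wt_416_7d (adjusted p up to 0.0612) and Selp without any of wt_44, wt_48, wt_67, wt_409_7d or wt_416_7d (adjusted p up to 0.111). Satellite glia genes, at 23 tested, repair Schwann cell genes other than Gap43, at 16 tested with it, and meningeal barrier genes, at 19 tested, gave no calls by edgeR, with medians of -0.15, 0.08 and -0.67. At an unadjusted p under 0.05 there were 5 satellite glia, 4 repair Schwann cell (Gap43 included) and 3 meningeal genes, and DESeq2 called 1 satellite glia gene higher. Of 28 fibroblast and matrix genes Timp1, an inhibitor of metalloproteinases, rose, by 1.52 ± 0.33 (adjusted p = 0.0153), and DESeq2 called 2 others lower. Leaving out wt_67 or wt_416_7d ended the call of Timp1 (adjusted p up to 0.0672). In wt_410_7d the myelin, endothelial and meningeal lists had medians of -1.34, -1.32 and -1.18 relative to the naive mean, against -0.10, -0.19 and -0.04 in wt_416_7d, so injured libraries differed in these tissues among themselves.

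**Figure D4:**
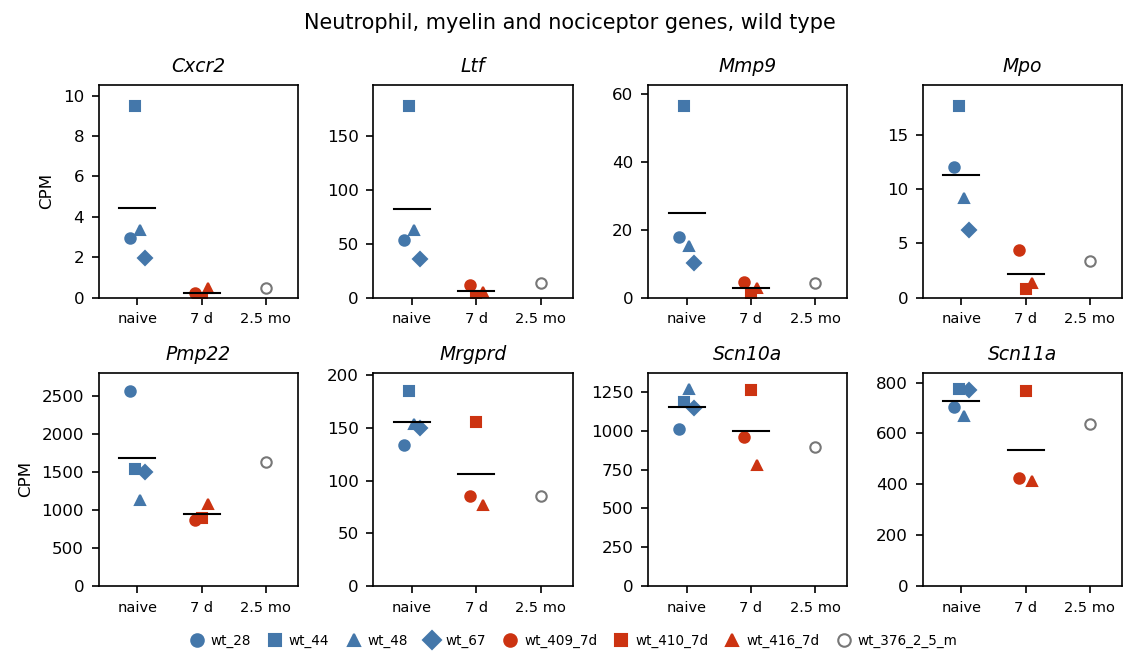
CPM on a linear axis from 0 in each WT library for 4 neutrophil genes, 1 myelin gene and 3 nociceptor genes, with symbols as for the raised genes and lines at group means. Naive wt_44 is the highest library for the neutrophil genes and naive wt_28 for Pmp22, and wt_410_7d lies above the other injured libraries for Mrgprd, Scn10a and Scn11a.

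Enzymes and inhibitors that remodel the matrix around axons rose in 6 of 17 cases, with Mmp9 the member that fell. Mmp16, a membrane-bound metalloproteinase, had 6.18, 6.85, 10.5 and 6.80 CPM in naive and 27.6, 36.6 and 65.8 CPM at 7 d and rose by 2.51 ± 0.32 (SE, adjusted p = 0.000228). The highest naive library was wt_48 and all injured libraries were above it. Adam8 and Plaur, the urokinase receptor, rose by 2.07 ± 0.29 (adjusted p = 0.000498) and 1.27 ± 0.21 (adjusted p = 0.00214), and Timp1 and Serpinf1 were also called higher. Of 18 clock genes, Nfil3, Per1 and Bhlhe41 rose, the latter pair by 1.08 ± 0.22 (adjusted p = 0.0109) and 0.51 ± 0.12 (adjusted p = 0.0265). No call was left for Per1 without wt_416_7d (adjusted p up to 0.113) and Bhlhe41 without any of wt_28, wt_67, wt_410_7d or wt_416_7d (adjusted p up to 0.139). Glucocorticoid-responsive genes gave Cdkn1a and Zbtb16, a zinc finger repressor, at 2.23 ± 0.54 (adjusted p = 0.0305), of 16. Zbtb16 no longer passed without any of wt_28, wt_44, wt_67 or wt_416_7d (adjusted p up to 0.296). The hour of tissue collection is not given in the labels. Ribosomal protein, importin family, cholesterol synthesis, proliferation, arginine and polyamine, and mitochondrially encoded genes had no member called by edgeR, with medians of 0.20, -0.02, 0.01, -0.29, 0.06 and 0.69. Their counts at an unadjusted p under 0.05 were 2, 1, 1, 5, 3 and 4, and DESeq2 called 2 arginine and polyamine genes higher and none of the others. Uqcrc2, a core protein of respiratory complex III, was the member that fell among 28 nuclear respiratory chain genes, by 0.44 ± 0.11 (adjusted p = 0.0303). Without any of wt_28, wt_44, wt_67 or wt_416_7d the call of Uqcrc2 ended (adjusted p up to 0.201).

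Lists for tissues that a dissection could carry along were read as a check. Skeletal muscle genes had 0 of 14 called by edgeR (4 at an unadjusted p under 0.05, 2 lower by DESeq2) and a median of -4.05, with Acta1, skeletal actin, at 15.9, 34.6, 0.513 and 0.850 CPM in naive and 1.25, 0.853 and 1.001 CPM at 7 d, so wt_28 and wt_44 were the libraries with muscle transcripts. Adipocyte genes had 1 of 8 higher, Car3, a carbonic anhydrase, at 2.77 ± 0.45 (adjusted p = 0.00222), while Fabp4, a fat cell marker, was at 7.18, 2.09, 0.564 and 2.23 and 0.809, 0.569 and 0 CPM. Spinal cord glia genes had 1 of 9 higher, Aldh1l1, a folate enzyme of astrocytes, at 0.84 ± 0.20 (adjusted p = 0.0272), and the list median was -0.66. Leaving out any of wt_28, wt_48, wt_67 or wt_416_7d ended the call of Aldh1l1 (adjusted p up to 0.192).

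The largest rises among called genes reaching 1 CPM, apart from Sprr1a, Npy and Cckbr above, began from almost no transcript. Hmx3, a homeobox factor of the developing nervous system, had 0 counts in all 4 naive libraries and 0.882, 0.711 and 1.62 CPM at 7 d, which is at least 27.8-fold higher when 3 counts over the naive group are taken as the floor (adjusted p = 0.00290). Fgf3, a fibroblast growth factor, had 0.249, 0.535, 0.667 and 0.213 CPM in naive and 13.2, 12.8 and 29.0 CPM at 7 d and rose by 5.43 ± 0.63 (SE, adjusted p = 0.000143). Sh2d1b2, an adaptor of natural killer cell receptors, had 1 count in the naive group and 71 at 7 d, a ratio of 138 with an exact 95% counting interval of 24.0 to 5522 (adjusted p = 0.000902). Cyp24a1, which inactivates vitamin D, had 0, 0, 0.103 and 0.106 and 2.06, 2.28 and 3.39 CPM and rose by 5.47 ± 0.80 (adjusted p = 0.000762). Adm2, a peptide of the calcitonin family, rose by 5.16 ± 0.71 (adjusted p = 0.000449), Anxa10, an annexin, by 5.05 ± 0.83 (adjusted p = 0.00214), Lipn, a lipase, by 5.24 ± 0.91 (adjusted p = 0.00308) and Igfn1 by 4.55 ± 0.83 (adjusted p = 0.00425). Pnliprp2, another lipase, had 2 counts in the naive group and 48 at 7 d, a ratio of 46.6 (12.2 to 396; adjusted p = 0.00659). All injured libraries were above all naive ones for each of these 9 genes, which is part of the rule by which they were named.

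The largest falls, apart from Tpm3-rs7 and the neutrophil genes above, were of genes with low counts. Ear6, an eosinophil ribonuclease with close relatives in the genome, had 94 counts in the naive group and 1 at 7 d, a ratio of 48.4 of naive to 7 d (exact 95% counting interval 8.48 to 1932; adjusted p = 0.00797). F5, coagulation factor V, had 112 and 3 counts, a ratio of 19.2 (6.41 to 94.6; adjusted p = 0.0245), and Dchs2, a large cadherin, 96 and 3, a ratio of 16.5 (5.47 to 81.3; adjusted p = 0.0140). Cd177, Ctsg, Itgb2l and Ifitm6, found in neutrophils or other myeloid cells, fell by 3.42 ± 0.77, 3.15 ± 0.68, 3.08 ± 0.82 and 2.64 ± 0.63 (adjusted p = 0.0196, 0.0148, 0.0494 and 0.0272), and Gdf10, a BMP-related factor, by 3.47 ± 0.85 (adjusted p = 0.0297). No call was left for Ear6 without wt_416_7d (adjusted p up to 0.0643), F5 without any of wt_28, wt_44, wt_410_7d or wt_416_7d (adjusted p up to 0.136) and Dchs2 without wt_416_7d (adjusted p up to 0.0946). Calls ended for Cd177 without wt_410_7d or wt_416_7d (adjusted p up to 0.110), Ctsg without wt_410_7d or wt_416_7d (adjusted p up to 0.0918) and Itgb2l without any of wt_28, wt_44, wt_409_7d, wt_410_7d or wt_416_7d (adjusted p up to 0.156). Losing 1 library ended the call for Ifitm6 without any of wt_44, wt_48, wt_410_7d or wt_416_7d (adjusted p up to 0.120) and Gdf10 without any of wt_28, wt_44, wt_67, wt_409_7d or wt_416_7d (adjusted p up to 0.156). Tpm3-rs7, a copy of the tropomyosin gene Tpm3 that lies on chromosome 14, had 12.5, 12.5, 11.0 and 11.1 CPM in naive and 0.441, 0.356 and 0.924 CPM at 7 d, while Tpm3 had 34.2, 36.8, 30.8 and 28.8 and 52.7, 46.2 and 59.6 CPM. Counts of these near-identical genes are uncertain, since the sources used here do not say how reads that match several places were handled.

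Some called genes outside the lists were named after their values were seen. The 4 neighbours Meg3, Rian, Mirg and Rtl1 in the imprinted region of chromosome 12 rose. The noncoding Meg3 went from 885, 1006, 927 and 1112 CPM in naive to 1703, 1786 and 1888 CPM at 7 d, a rise of 0.87 ± 0.17 (SE, adjusted p = 0.00673), Rian rose by 0.49 ± 0.13 (adjusted p = 0.0434), Mirg by 0.77 ± 0.18 (adjusted p = 0.0226) and Rtl1, which lies antisense to microRNA precursors, by 0.92 ± 0.22 (adjusted p = 0.0283). Dlk1, a coding gene of the same region, was at 1.74 ± 0.833 and 0.896 ± 0.532 CPM (SD, n = 4 and 3) and was not called (adjusted p = 0.415). The test was no longer passed by Rian without any 1 of the 7 libraries (adjusted p up to 0.129), Mirg without any of wt_28, wt_44, wt_48, wt_409_7d or wt_416_7d (adjusted p up to 0.105) and Rtl1 without any of wt_48, wt_67 or wt_409_7d (adjusted p up to 0.161). En1, a homeobox factor, had 0.0499, 0.243, 0.205 and 0.0531 CPM in naive and 1.03, 0.925 and 1.08 CPM at 7 d, a rise of 2.80 ± 0.52 (adjusted p = 0.00521). Phox2a, a factor of autonomic neurons, had 1 count in the naive group and 28 at 7 d (ratio 54.4, exact 95% counting interval 8.99 to 2224; adjusted p = 0.0302), and Vax2 1 and 16 (ratio 31.1, 4.83 to 1303; adjusted p = 0.0483). Neurog1, a proneural factor of sensory neurons, rose by 1.80 ± 0.41 (adjusted p = 0.0197), Six2 by 1.89 ± 0.40 and Tbx6 by 1.36 ± 0.35. Losing 1 library ended the call for Phox2a without any of wt_28, wt_44, wt_48, wt_67, wt_410_7d or wt_416_7d (adjusted p up to 0.113), Vax2 without any of wt_28, wt_44, wt_48, wt_67 or wt_416_7d (adjusted p up to 0.131) and Neurog1 without any of wt_28, wt_44, wt_67, wt_410_7d or wt_416_7d (adjusted p up to 0.112). The test was no longer passed by Six2 without wt_416_7d (adjusted p up to 0.0948) and Tbx6 without any of wt_28, wt_44, wt_48, wt_67, wt_410_7d or wt_416_7d (adjusted p up to 0.126). Slc6a4, the serotonin transporter, had 0.598, 2.58, 2.15 and 0.213 CPM in naive and 12.9, 14.6 and 29.0 CPM at 7 d and rose by 3.75 ± 0.80 (adjusted p = 0.0169). Leaving out wt_28 or wt_416_7d ended the call of Slc6a4 (adjusted p up to 0.0918). Inhbb, a subunit of activin B, rose by 1.85 ± 0.32 (adjusted p = 0.00311) and Fst, which binds activins, by 2.97 ± 0.40 (adjusted p = 0.000457). Igfbp3, a carrier of insulin-like growth factors, rose by 1.89 ± 0.21, Socs3, a feedback inhibitor of STAT3, by 1.04 ± 0.21 and Il1r1, the interleukin 1 receptor, by 1.16 ± 0.20. The call of Socs3 was lost without wt_416_7d (adjusted p up to 0.0966).

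Injured libraries were not equal in strength. Of the 476 genes called higher, 408 were highest in wt_416_7d, 34 in wt_409_7d and 34 in wt_410_7d. Of the 128 called lower, 68 were lowest in wt_416_7d, 41 in wt_410_7d and 19 in wt_409_7d. The lists of injury factors, axon growth and stress response genes had medians relative to the naive mean of 1.02, 0.93 and 0.77 in wt_416_7d. Those of wt_409_7d were 0.50, 0.54 and 0.33, and those of wt_410_7d 0.52, 0.57 and 0.31. Without wt_416_7d, 185 genes were called higher (0.977%) and 35 lower (0.185%), and 206 of the 220 were among the 604. Without a naive library, the counts were 358 (wt_28), 387 (wt_44), 523 (wt_48) and 335 (wt_67). In the lone WT library at 2.5 months, which has no replicate, Atf3 was at 85.1, Sprr1a at 359, Csf1 at 37.6, Gal at 115, Npy at 118 and Nts at 114 CPM.

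The same injury in KO ganglia, where 7.61% of genes were called higher and 5.89% lower, is set beside the WT response as a reference. For Atf3, Sprr1a, Gap43, Sema6a and Csf1 the changes in KO were 4.4 ± 0.62, 5.91 ± 1.29, 2.06 ± 0.21, 3.04 ± 0.25 and 2.49 ± 0.24 (SE, adjusted p = 0.000433, 0.0102, 1.57e-05, 8.07e-06 and 9.67e-06). The interaction of injury and genotype was called for 2 of 19010 genes (0.0105%) by edgeR and 2 by DESeq2, with 704 at an unadjusted p under 0.05. These were Tpm3-rs7, whose counts are uncertain as stated, and the transcript 1500004A13Rik. The latter had 42.1, 36.7, 36.2 and 41.0 CPM in naive WT and 71.4, 80.0 and 77.1 CPM at 7 d, a rise of 0.97 ± 0.11 (adjusted p = 9.80e-05) with no overlap, against a change of -0.20 ± 0.11 in KO (adjusted p = 0.231), where naive libraries were at 71.0 to 85.7 CPM. Naive WT libraries were thus below naive KO libraries, whose range held the 7 d WT values. For the other genes a difference in response between genotypes did not pass the threshold, which does not show that the responses are alike.

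**Figure D5:**
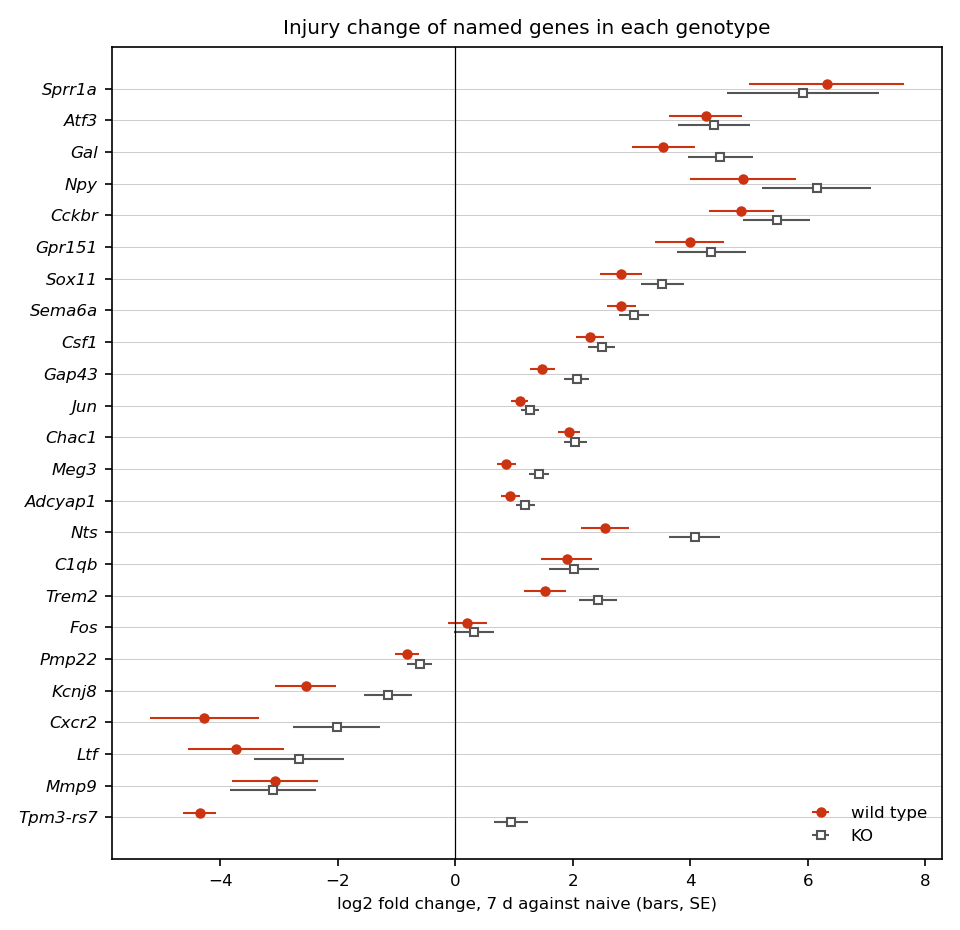
Log2 fold change at 7 d against naive with its SE for named genes in WT (filled circles) and KO (open squares). Sprr1a, Atf3, Gal, Npy and Cckbr are raised in both genotypes, and Tpm3-rs7 lies at -4.35 in WT and 0.95 in KO.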

How the data were processed

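Per the labels, total RNA of dorsal root ganglia was sequenced as poly(A) libraries. The authors deposited raw gene-level read counts, 21288 genes by 18 libraries, with no normalization. The submitters' processing notes name STAR 2.4.2a0 with HTSeq 0.6.1p1, further bcl2fastq 2.17.1.14, cutadapt and DESeq2 1.10.1, on build GRCm38. Neither annotation release nor strandedness is given in the sources used here, so overlapping, antisense and near-identical genes are uncertain. Symbols came from GENCODE M21 (21258 matched, 30 not).

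Counts were scaled by trimmed mean, filtered with filterByExpr by group (minimum count 10, minimum total 15), which left 19010 genes, and tested with the quasi-likelihood F test (robust) of edgeR 4.0.16 in R 4.3.3. One fit gave each of the 6 groups a mean, with 12 residual degrees of freedom; the lone WT library at 2.5 months adds none. Adjusted p is Benjamini-Hochberg over all genes tested, called under 0.05, and SE comes from the F statistic. The fit was also run on counts simulated from the naive WT means and the fitted spread, with known changes in some genes. No injured library was made stronger than the others there, so that run does not bear on calls that rest on wt_416_7d. CPM are edgeR's counts per unit of TMM-scaled library size. List medians by library use log2 CPM with a prior count of 2. Counting intervals are exact at 95% and cover counting error only.

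The members and the 49 gene lists (1056 entries) were chosen with earlier results of these data known. Named genes are the 4 markers, Kpna4 and Fos, the 12 strongest changes in each direction among called genes that reach 1 CPM on average in either group, have ranges apart and are not predicted models, and up to 4 called members per list with the smallest adjusted p, with the 2 most abundant members where fewer than 2 were called. Further called members of a list were named after their values were seen, as were the genes said to be so. A few genes that meet these rules are not reported here. Alternatives were DESeq2 1.42.0 and its size factors, a 1.5-fold threshold, the compared groups alone, a gene length correction, no filter, equal depth, and leaving out libraries; leaving out each KO library was added after seeing the data. Sequences are RefSeq promoters, 250 bases before the start.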

Additional observations from a re-analysis of the deposited data

Results flagged for a closer look

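In 9 of 234 groups of 4 naive WT libraries examined (a gene or the summed level of a list), 1 library lay apart from the other 3 by more than the 95% critical value of Dixon's test; chance marks about 1 in 20 such groups. The library wt_44 was apart for Hcn2, a pacemaker channel, at 159 CPM below the rest and for Itgb2l at 11.0 CPM above the rest. The library wt_28 was apart for Lck, a T cell kinase, at 2.99 CPM and for Phox2a and Vax2 at 0.0499 CPM each, where 1 count stood against 0 in the others. In wt_48, Mmp16 was at 10.5 CPM and Sh2d1b2 at 0.0513 CPM, the latter again 1 count. In wt_67, Hrk was high at 1.33 CPM and Timp1 low at 0.797 CPM.

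The injury change differed between genotypes by the interaction test of edgeR for 2 genes. Tpm3-rs7 had a WT minus KO difference of -5.30 on the log2 scale, with counts that are uncertain because of its near-identical copy Tpm3, and 1500004A13Rik one of 1.16. For 1500004A13Rik the genotypes already differed before injury, with naive WT libraries below naive KO libraries.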

How the results depend on the processing

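The 604 genes called at 7 d in WT numbered 600 with DESeq2 size factors, 582 at equal depth, 562 without the filter, 709 when only the 7 compared libraries were fitted and 803 with the gene length trend removed. In the same order 588, 546, 559, 487 and 583 of the 604 were among these. DESeq2 called 1111 genes (743 higher and 368 lower), a 1.5-fold threshold 149 (134 higher and 15 lower), and leaving out ko_39, ko_40 and ko_422_7d together gave 968; of the 604, 601, 149 and 592 were among these. Leaving out 1 library at a time gave 220 (without wt_416_7d) to 972 (without ko_422_7d, chosen after seeing the data). Over the WT libraries the range was 220 to 646, and the cause of these differences was not tested. The interaction numbered 2 genes under every alternative that leaves out 1 library and 1 with the gene length trend removed and without ko_39, ko_40 and ko_422_7d. Checks of single genes covered 186 of the genes examined, 119 of them called. Further called list members named in the text, among them Klf6, Ecel1, Vgf and Atf4, were not checked in this way. None of the 119 reversed its direction under any of these alternatives. Of these 119 genes, 57 lost the call without wt_416_7d, 40 without wt_67, 39 without wt_28, 32 without wt_44, 22 without wt_48, 21 without wt_410_7d and 15 without wt_409_7d. A 1.5-fold threshold ended 69 of these calls, the compared groups alone 12, equal depth 8, no filter 6, the length correction 5, DESeq2 size factors 1 and DESeq2 0. No paired analysis was possible because the library numbers in the titles are not shared between groups. Depth was lower at 7 d than in naive libraries, and the counts of genes under 1 CPM are few. Counting intervals are given for only some of these genes, and the ratios of those rest on them.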

Other observations

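Gapdh, the glycolytic enzyme often taken as a stable reference gene, was lower after injury; it was named after its values were seen. It had 73.4, 95.2, 100.4 and 103 CPM in naive WT and 33.3, 36.5 and 30.5 CPM at 7 d, and fell by 1.47 ± 0.22 on the log2 scale (SE, edgeR adjusted p = 0.000855). In KO the naive libraries had 56.0 to 104 CPM and the 7 d libraries 17.0 to 31.2 CPM, a change of -1.52 ± 0.22 (adjusted p = 0.000279). No injured library of either genotype reached the lowest naive one. Capza1, a subunit of the actin capping protein, showed the same order, with 19.8, 23.1, 25.9 and 22.5 CPM in naive WT and 8.68, 8.18 and 8.39 CPM at 7 d, a fall of 1.44 ± 0.13 (adjusted p = 1.30e-05) that held in every fit leaving out 1 WT library. Both genes have processed copies elsewhere in the genome, and their counts are uncertain for that reason.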
